A study of Homo sapiens with 8 samples.

Results

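The interleukin-1 (IL-1) family was followed through its ligands, antagonists and receptors in keratinocytes transfected with small interfering RNA (siRNA). The 10 genes were taken by symbol from the 34415 symbols of the deposited count table: the ligands IL1A, IL1B, IL36G, IL18 and IL33, the antagonists IL1RN and IL36RN, and the receptor genes IL1R1, IL1R2 and IL1RAP. All 10 symbols were found, 9 had counts above 0, and 8 passed the filter on low counts. RNA came from HaCaT, an established human keratinocyte line that arose without a transforming virus, between passages 21 and 33. The siRNA targeted ETV4 in 4 cultures (siETV4), while the 4 control cultures received a negative-control siRNA (siNC), and every culture, controls included, spent 96 h in medium raised to 35 mM glucose and had its siRNA for 48 h. The submitters describe the 4 cultures of each group as independent biological replicates. No source used here says whether siETV4 is a single siRNA or a pool. The basal medium held 5.5 mM glucose, and cells kept in it were not analysed here.

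IL-1 alpha and IL-1 beta, the products of IL1A and IL1B, both bind the receptor IL1R1, which then recruits the accessory chain IL1RAP and signals through MYD88 and IRAK kinases to NF-kB. The IL-1 receptor antagonist IL1RN occupies IL1R1 without recruiting that chain, and IL1R2 is a decoy receptor that binds the ligands and does not signal. IL36G acts through IL1RL2 with the same accessory chain and is blocked by IL36RN, IL18 acts through IL18R1 and IL18RAP, and IL33 through IL1RL1 and IL1RAP. Keratinocytes are known for holding IL-1 alpha and the IL-18 precursor in store and for releasing them on injury. IL-1 beta and IL-18 are made as precursors that caspase-1 cuts, so a transcript level does not give the amount of active cytokine.

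Each library held between 35057643 and 41657753 counts, so that 1 CPM, the usual unit of a count scaled to its library's size, stood for 40.1 counts at the mean depth. ETV4, an ETS-family transcription factor of the PEA3 group, averaged 2.61 ± 0.547 CPM in the siETV4 libraries and 28.2 ± 5.64 CPM in the siNC libraries (SD, n = 4 each). It fell by 3.43 on the log2 scale (SE 0.21; edgeR adjusted p 4.64e-05). All 8 keratinocyte markers looked up, KRT5, KRT14 and TP63 among them, were detected and tested. Of 6 myeloid markers, PTPRC and TYROBP were at 0 in every library, and the 6 summed to 0.862 to 1.21 CPM in siETV4 and 0.872 to 1.56 CPM in siNC. Libraries differed in how their deviation from the mean of all 8 followed the GC content of transcripts across genes. Spearman's rho was -0.64, 0.21, -0.57 and 0.02 in siETV4 replicates 1 to 4, and 0.55, 0.53, 0.63 and -0.60 in siNC replicates 1 to 4. The library siNC replicate 4 thus stood apart from the other siNC libraries in this trend, and it also had the lowest ETV4 of them. Without siNC replicate 4, rho was 0.53 to 0.63 in siNC and -0.64 to 0.21 in siETV4, so the trend then followed the siRNA group. In the fit that only leaves out this library, a group difference and the GC trend cannot be told apart. The results below are given with and without siNC replicate 4 where it matters.

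The question was whether ETV4 depletion changed IL-1 family transcripts in high glucose. None of the 8 tested members passed an adjusted p of 0.05 in the quasi-likelihood test of edgeR, adjusted by Benjamini-Hochberg over the 13572 genes tested, of which 0.236% passed. At an unadjusted p under 0.05 stood 2 of the 8, IL1A and IL1R1, against 12.6% of all genes tested, and DESeq2 and limma-voom also called 0 members. The log2 fold change of siETV4 over siNC was above 0 for 7 of the 8 members, with a median of 0.38, against -0.01 over all genes tested. The groups did not overlap for 2 of the 8, IL1RN and IL1R1, both higher in siETV4. Over all tested genes, 6.55% did not overlap, 2.62% higher and 3.93% lower. The members were chosen with earlier results of these data known, so these shares describe them and are no test. In a bulk sample a change in the share of cells that transcribe a gene and a change in RNA per cell cannot be told apart.

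Levels between genes were compared per length, in the deposited FPKM values (each count scaled by gene length and by the library's total). IL18 was the most abundant member, at 59.9 ± 3.48 FPKM in siETV4 and 51.7 ± 5.47 FPKM in siNC (SD, n = 4 each), above 94.0% of the 20585 genes with any count. IL1B followed at 33.4 ± 1.45 FPKM in siETV4 and 34.2 ± 3.06 FPKM in siNC, and its highest library, at 38.5 FPKM, lay under the lowest of IL18, at 45.5 FPKM. IL1RN and IL1A came next and were not separated: over all 8 libraries they averaged 8.80 ± 1.06 and 8.51 ± 3.27 FPKM, and IL1RN was the higher of the pair in 5 of 8 libraries. IL1RAP averaged 2.89 ± 0.993 FPKM and IL36G 0.749 ± 0.232 FPKM, each below the member before it in every library. IL36RN at 0.182 ± 0.0470 FPKM and IL1R1 at 0.135 ± 0.0624 FPKM overlapped in range, although IL36RN was higher in 7 of 8 libraries. IL1R2 stood lowest of the detected members at 0.0223 ± 0.0205 FPKM, and IL33 had no count. Per length, IL18, IL1B and IL1A thus stood above both receptor chains, IL1RAP and IL1R1, in every library, while IL36G lay below IL1RAP in every library. The length behind an FPKM value was 11581 bases for IL1RAP against 1155 for IL18 and 2103 for IL1A, and IL1RAP had 779 to 1992 counts per library. In CPM, which is not scaled by length, IL1RAP stood above IL1A in every library. The order of IL1A and IL1RAP thus depends on the lengths used.

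**Figure D1:**
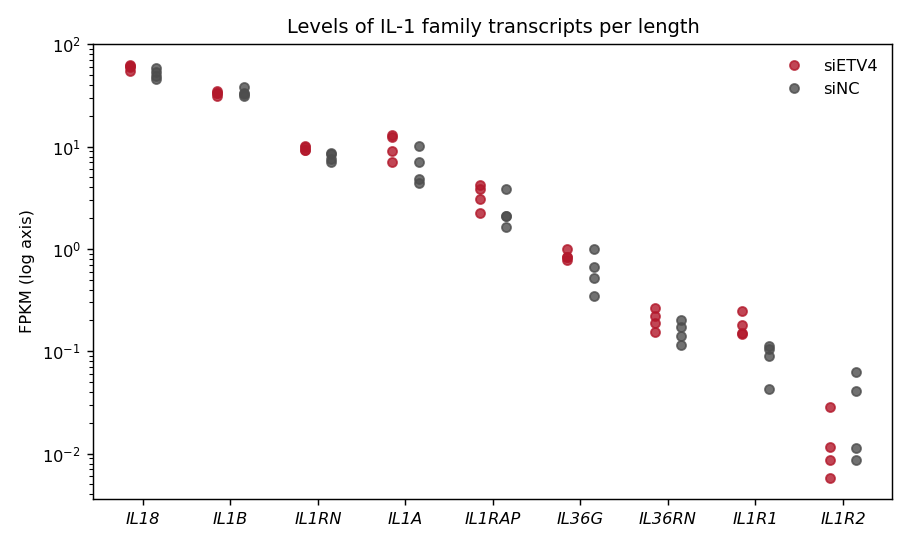
Deposited FPKM of the 9 detected IL-1 family genes on a log axis, in order of their mean, with 1 point per library (siETV4 left, siNC right of each pair). IL18 and IL1B stood above all other members in every library, and IL1R1 and IL1R2 stayed below 0.25 FPKM.

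IL1A encodes the alarmin that keratinocytes release when damaged. It stood at 27.2, 19.3, 25.3 and 14.5 CPM in siETV4 replicates 1 to 4, against 15.1, 10.6, 9.54 and 20.7 CPM in siNC replicates 1 to 4. The groups overlapped, since siETV4 replicate 4 lay below siNC replicates 1 and 4. Its log2 fold change was 0.63 (SE 0.26, 95% interval 0.05 to 1.20), and the edgeR adjusted p of 0.378 did not pass. Its 3 highest libraries, siETV4 replicates 1 and 3 and siNC replicate 4, were the 3 with a rho to GC content of -0.57 or lower, an order shared by 18.5% of all genes tested. Without siNC replicate 4, IL1A passed with a log2 fold change of 0.88 (edgeR adjusted p 0.0206), in a fit that called 16.9% of all genes. With the trends of each library with GC content and gene length removed, the log2 fold change was 0.38 and the edgeR adjusted p 0.240.

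IL1A lies on the minus strand of chromosome 2, from 112773925 to 112784493 (GRCh38), at one end of a cluster of 9 ligand and antagonist genes that spans 360.1 kb up to IL1RN. Promoter sequence is shown because the depleted factor binds DNA, with the 250 bases before the outermost annotated start of IL1A and before that of IL1B, its neighbour in the cluster, taken from RefSeq (GRCh38.p14). The IL1A stretch is chr2:112784494-112784743 and the IL1B stretch chr2:112836780-112837029, both on the minus strand and written 5′ to 3′. Capitals mark matches on either strand to the AP-1 motif TGANTCA, the PEA3 motif AGGAAG or the ETS consensus CCGGAA.
IL1A: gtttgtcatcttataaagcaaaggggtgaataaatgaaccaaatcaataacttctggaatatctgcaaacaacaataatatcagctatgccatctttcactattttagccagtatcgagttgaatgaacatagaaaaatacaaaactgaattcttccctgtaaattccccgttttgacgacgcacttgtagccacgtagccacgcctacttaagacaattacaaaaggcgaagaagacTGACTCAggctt
IL1B: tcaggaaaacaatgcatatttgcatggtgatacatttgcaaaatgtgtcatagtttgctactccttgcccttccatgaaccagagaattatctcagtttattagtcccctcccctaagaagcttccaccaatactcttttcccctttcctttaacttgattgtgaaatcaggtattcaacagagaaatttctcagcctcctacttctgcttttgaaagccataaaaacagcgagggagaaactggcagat
The single match in the IL1A stretch was an AP-1 motif, 12 to 6 bases before the start, and the IL1B stretch held none of the 3 motifs. Among 35116 such windows in the table, 28.7% held AGGAAG, 14.5% CCGGAA and 6.57% TGANTCA. A match is a string of letters and not a measured binding site, and no match says only that the letters are not in that window.

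IL1B, the main secreted pyrogenic ligand of the family, had the smallest log2 fold change of the tested members. It stood at 52.0, 50.2, 52.8 and 51.5 CPM in siETV4 and at 52.7, 63.1, 50.8 and 51.7 CPM in siNC. Only siNC replicate 2 stood apart, above all other libraries. Between siETV4 and siNC it had a log2 fold change of -0.08 (SE 0.10), and its 95% interval, -0.30 to 0.14, corresponds to between 0.812 and 1.10 times the siNC level (edgeR adjusted p 0.741). It was -0.19 once the GC and length trends were removed (edgeR adjusted p 0.234), and -0.22 without siNC replicate 4 as well (edgeR adjusted p 0.105). IL1A per IL1B, as a ratio of FPKM, was 0.390, 0.288, 0.358 and 0.210 in siETV4, against 0.213, 0.125, 0.140 and 0.299 in siNC, so this ratio also overlapped between the groups.

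IL18, which drives interferon-gamma release from lymphocytes once caspase-1 has cut it, stood at 68.2, 71.7, 70.2 and 62.5 CPM in siETV4 and 58.0, 64.6, 54.1 and 65.6 CPM in siNC. The lowest siETV4 library lay below siNC replicates 2 and 4. At 0.17 (SE 0.10, 95% interval -0.05 to 0.39; edgeR adjusted p 0.486), the log2 fold change did not pass, and it was -0.085 once the GC and length trends were removed (edgeR adjusted p 0.715). IL18 lies on chromosome 11, from 112143260 to 112164094 (GRCh38). IL33, a nuclear alarmin of epithelia, had 0 counts in all 8 libraries, which allows up to 0.0856 CPM in the shallowest of them (3 counts). This limit covers counting error only.

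IL36G, the IL-36 ligand of keratinocytes that is prominent in psoriasis, was scarce, with 17 to 50 counts per library. Its siETV4 libraries stood at 1.20, 1.03, 0.914 and 0.990 CPM, and its siNC libraries at 0.634, 0.832, 0.428 and 1.19 CPM. The siNC replicates 1, 2 and 3 lay below every siETV4 library, while siNC replicate 4 lay above all of them but siETV4 replicate 1. With a log2 fold change of 0.42 and an SE of 0.35, the 95% interval of -0.35 to 1.20 leaves room for a fall as well as for a rise of more than 2-fold (edgeR adjusted p 0.620). The log2 fold change was 0.72 without siNC replicate 4 and 0.22 without siNC replicate 3 (edgeR adjusted p 0.210 and 0.922), and 0.27 once the GC and length trends were removed (edgeR adjusted p 0.745).

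**Figure D2:**
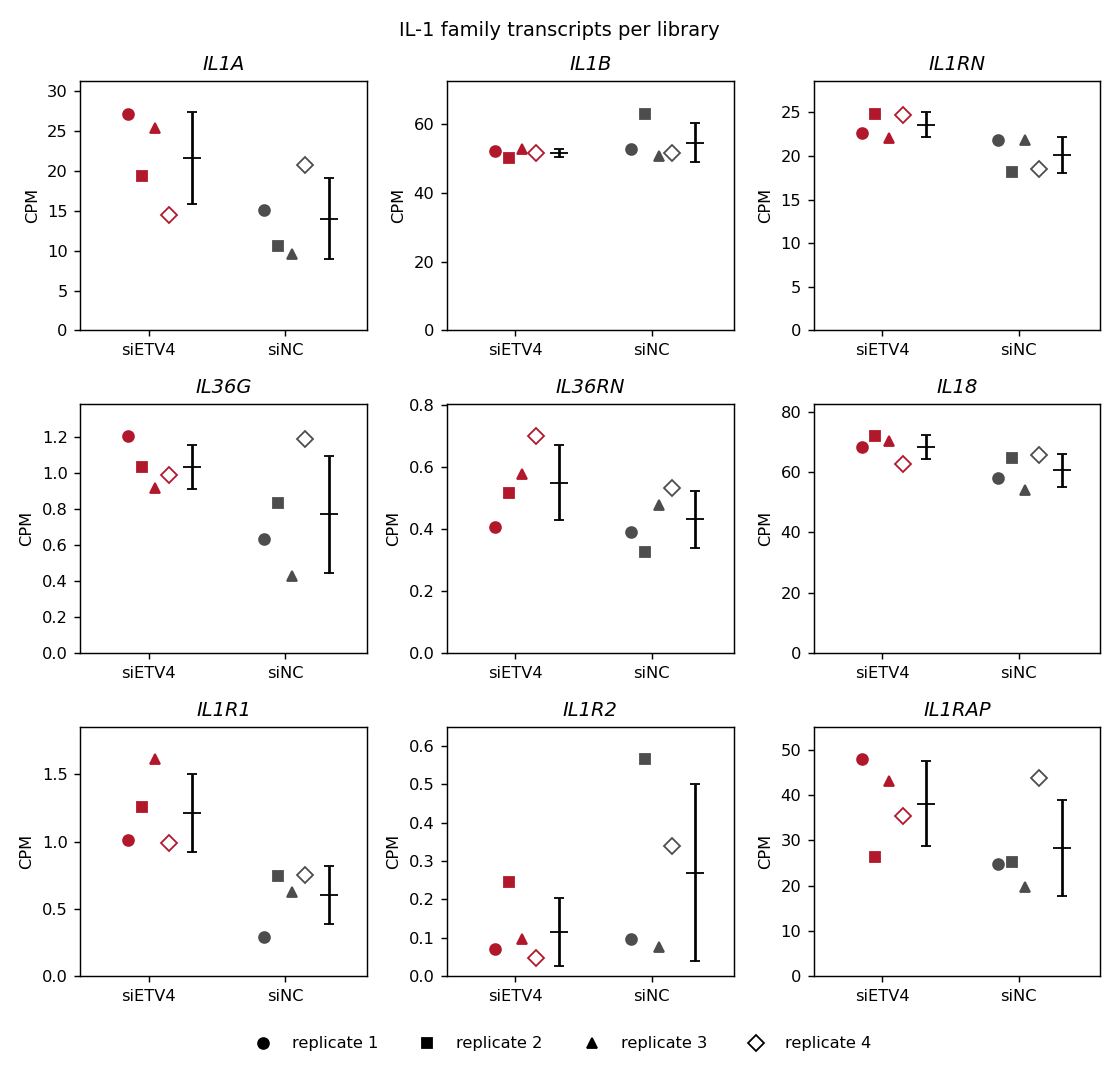
CPM of the 9 detected members in each library, siETV4 left and siNC right, with the replicate number as the marker shape and the group mean ± SD (n = 4) beside the points. IL1RN and IL1R1 are the 2 members whose groups do not overlap, and IL1A, IL36G and IL1RAP are high in siNC replicate 4 relative to the other siNC libraries.

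The antagonists were measured beside the ligands they oppose. IL1RN stood at 22.7, 24.9, 22.1 and 24.7 CPM in siETV4, against 21.9, 18.2, 21.8 and 18.6 CPM in siNC. Every siETV4 library lay above every siNC library, but the nearest pair, siETV4 replicate 3 and siNC replicate 1, differed by little. Its log2 fold change was 0.23 (SE 0.12, 95% interval -0.03 to 0.49) with an edgeR adjusted p of 0.441. It was 0.19 without siNC replicate 4 and 0.27 with the trends removed, and passed in neither fit (edgeR adjusted p 0.263 and 0.199). Counts per symbol do not separate the secreted from the intracellular form of the antagonist. IL1RN per IL1A, as a ratio of FPKM, was 0.707, 1.09, 0.739 and 1.44 in siETV4, against 1.23, 1.45, 1.94 and 0.759 in siNC. Set against IL1A and IL1B together the ratio averaged 0.222 ± 0.0294 in siETV4 and 0.198 ± 0.0357 in siNC (SD, n = 4 each). Both ratios overlapped between the groups and are given as a description.

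IL36RN, the antagonist whose loss causes generalized pustular psoriasis, had 11 to 29 counts per library. It stood at 0.409, 0.517, 0.577 and 0.700 CPM in siETV4 and 0.390, 0.327, 0.478 and 0.533 CPM in siNC, with overlapping groups. Its log2 fold change of 0.34 did not pass (SE 0.37, 95% interval -0.47 to 1.16; edgeR adjusted p 0.695), and it was 0.21 without siETV4 replicate 4 (edgeR adjusted p 0.853). IL36RN was below IL36G in every library, at 0.152 to 0.316 of its FPKM in siETV4 and 0.175 to 0.499 in siNC.

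Among the receptors IL1R1, the signalling chain for both IL-1 ligands, had the largest log2 fold change of the tested members and few counts. It had 42, 51, 67 and 41 counts in siETV4, or 1.01, 1.26, 1.61 and 0.990 CPM, against 12, 25, 25 and 31 counts in siNC, or 0.293, 0.743, 0.629 and 0.751 CPM. Every siETV4 library was above every siNC library. The log2 fold change was 1.01 (SE 0.37), which is 2.01-fold with a 95% interval of 1.16 to 3.51, and the edgeR adjusted p of 0.332 did not pass. Without siNC replicate 4 the log2 fold change was 1.14 (edgeR adjusted p 0.0777), and with the trends removed it was 0.90 (edgeR adjusted p 0.249). Without siNC replicate 1, the lowest library, it was 0.78 (edgeR adjusted p 0.677). IL1R1 lies on the plus strand of chromosome 2, from 102070390 to 102179874 (GRCh38), and an antisense gene, IL1R1-AS1, shares 11 exonic bases with it in GENCODE v29. Without a known strand setting, reads within those 11 bases cannot be assigned to either gene. The length behind the FPKM of IL1R1 was 6782 bases.

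RefSeq lists 4 promoter windows for IL1R1, and the counts per symbol do not say which start was used. The PEA3 motif AGGAAG was found in 2 of them, and the window with most matches, chr2:102141541-102141790 on the plus strand, is shown beside that of IL36G, chr2:112977756-112978005 on the plus strand, the other member with more than 1 match. Capitals mark AGGAAG on either strand, and in the IL1R1 window 2 of the 3 matches overlap.
IL1R1: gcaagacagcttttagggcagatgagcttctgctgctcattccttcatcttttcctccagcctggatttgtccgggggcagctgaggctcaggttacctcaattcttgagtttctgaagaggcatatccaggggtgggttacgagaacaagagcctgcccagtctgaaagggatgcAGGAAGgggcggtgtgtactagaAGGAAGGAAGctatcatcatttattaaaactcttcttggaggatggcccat
IL36G: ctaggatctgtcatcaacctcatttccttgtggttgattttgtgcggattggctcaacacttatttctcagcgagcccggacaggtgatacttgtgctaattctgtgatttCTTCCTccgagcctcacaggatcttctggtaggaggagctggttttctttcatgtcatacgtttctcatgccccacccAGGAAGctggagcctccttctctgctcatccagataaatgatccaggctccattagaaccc
The IL1R1 matches end 69, 46 and 42 bases before the start, and those of IL36G 134 and 56 bases before it. Of the 18 windows listed for 9 of the members, some of which overlap, 6 held AGGAAG, 0 held CCGGAA and 3 held TGANTCA, that is 33.3%, 0% and 16.7%, with the shares over all windows given above.

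IL1RAP, the accessory chain shared by the receptors for IL-1, IL-33 and IL-36, stood at 47.9, 26.3, 43.0 and 35.3 CPM in siETV4, against 24.8, 25.3, 19.6 and 43.8 CPM in siNC. As for IL1A, its 3 highest libraries were siETV4 replicates 1 and 3 and siNC replicate 4. Its log2 fold change was 0.42 (SE 0.25, 95% interval -0.12 to 0.97; edgeR adjusted p 0.489). Without siNC replicate 4 it was 0.71 and passed (edgeR adjusted p 0.0224), and with the trends removed it was 0.30 and did not (edgeR adjusted p 0.239). Without siNC replicate 3 it was 0.28 (edgeR adjusted p 0.846). The gene lies on chromosome 3, from 190514085 to 190659750 (GRCh38), and shares 535 exonic bases with the noncoding gene AC108747.1 on the same strand in GENCODE v29. The membrane-bound and soluble forms of IL1RAP are not separated by these counts.

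IL1R2, the decoy receptor, had 3, 10, 4 and 2 counts in siETV4 and 4, 19, 3 and 14 counts in siNC, too few to pass the filter. It was the sole member below the filter with any count. Tested without a filter, its log2 fold change was -1.19 (SE 0.88; edgeR adjusted p 0.606), so no difference was detectable at this depth.

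Of the alternatives run, members passed in 1, the fit without siNC replicate 4, which called IL1A and IL1RAP higher. There 2 of 8 members were higher and 0 lower, beside 12% and 4.88% of all 13783 genes tested. Once each library's GC and length trends were removed, 0 of 8 passed beside 1.75% of 12470 genes (0.874% higher and 0.874% lower). With both steps together 0 of 8 passed beside 6.51% of 12602 genes (3% higher and 3.52% lower). In that last fit IL1A had a log2 fold change of 0.46 (edgeR adjusted p 0.0880) and IL1RAP 0.36 (edgeR adjusted p 0.0795). IL1A, IL1RN, IL36G, IL36RN, IL1R1 and IL1RAP kept a positive and IL1B a negative sign in these fits.

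**Figure D3:**
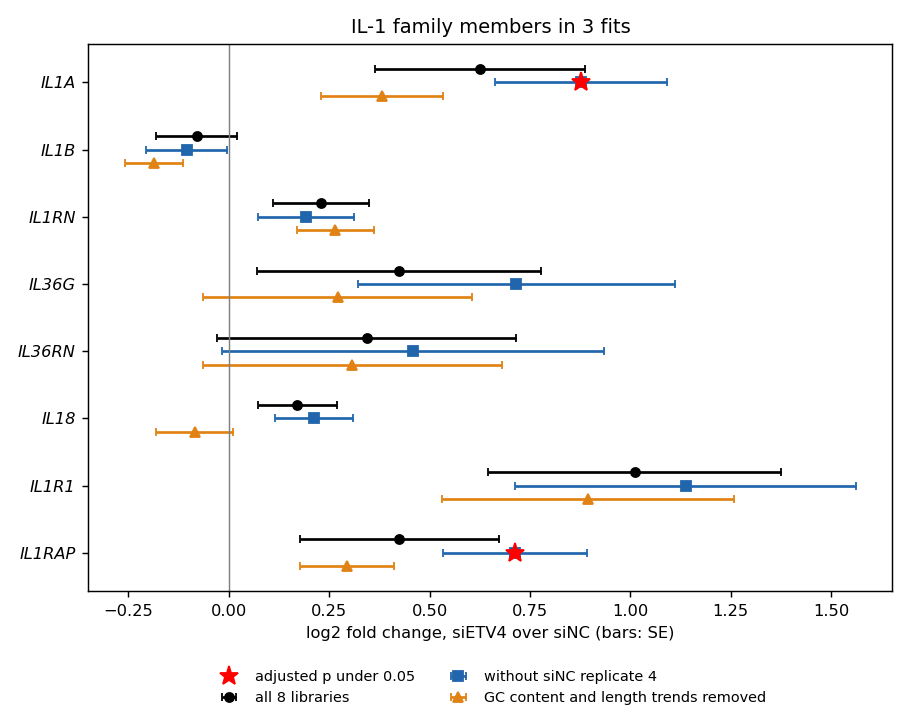
Log2 fold change of siETV4 over siNC with its SE for the 8 tested members, with all 8 libraries, without siNC replicate 4, and with GC content and length trends removed. A star marks an adjusted p under 0.05, reached by IL1A and IL1RAP without siNC replicate 4 and by no member in the other 2 fits. IL18 changes sign when the trends are removed.

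The genes around the family were taken from 5 lists of 67 genes, of which 55 were tested, 9 were below the filter and 3 were at 0 in every library. Of the 55, 1 passed, CTSS, which rose, beside 0.236% of all genes tested (0.118% higher). CTSS encodes cathepsin S, a cysteine protease that can cut the IL-36 gamma precursor into its active form. It had 913, 850, 1111 and 912 counts in siETV4, against 533, 386, 409 and 605 counts in siNC. The groups did not overlap, with means of 22.9 ± 2.60 CPM in siETV4 libraries and 12.4 ± 1.89 CPM in siNC libraries (SD, n = 4 each). Its log2 fold change was 0.89 (SE 0.15), or 1.85-fold with a 95% interval of 1.49 to 2.31, and the edgeR adjusted p was 0.0357. CTSS also passed without siNC replicate 4 (edgeR adjusted p 0.00333) and with the trends removed (edgeR adjusted p 0.0166). It did not pass when any other single library was left out (edgeR adjusted p 0.0779 to 0.191) or with library size alone as the scaling (edgeR adjusted p 0.0538), nor on log2 FPKM without a filter (limma adjusted p 0.104).

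The other genes of processing and release did not pass. The list held 20 genes, of which 16 were tested, with 1 higher and 0 lower past the threshold and a median log2 fold change of -0.06. Its most abundant members by FPKM were CAPN1 and CAPNS1, the large and the small subunit of the calpain that can cut the IL-1 alpha precursor, with log2 fold changes of -0.16 and -0.37 (edgeR adjusted p 0.502 and 0.232). CAPNS1 passed as lower without siNC replicate 4 (edgeR adjusted p 0.0116) and with the trends taken out (edgeR adjusted p 0.0399). In the first of these fits 3 genes of this list passed as higher and 1 as lower, beside 12% and 4.88% of all genes. In the second 1 passed as higher and 1 as lower, beside 0.874% of all genes each way. CASP1, chosen after its values were seen because its protease activates IL-1 beta and IL-18, stood at 30.4, 26.5, 28.5 and 18.2 CPM in siETV4 against 14.4, 14.2, 13.5 and 25.9 CPM in siNC. Here again siNC replicate 4 lay apart from the other siNC libraries. Its log2 fold change was 0.61 (edgeR adjusted p 0.345), and it passed without siNC replicate 4 (edgeR adjusted p 0.00821) and with both steps together (edgeR adjusted p 0.0174), but not with the trends removed alone (edgeR adjusted p 0.147). CASP4, also named after its values were seen, passed as higher without siNC replicate 4 (edgeR adjusted p 0.0202) but not with the trends removed (edgeR adjusted p 0.672). Among the 16 tested genes, CTSS, CASP1 and CASP4 above 0 and CAPNS1 below 0 had an unadjusted p under 0.05. The share over all genes tested was 12.6%. DESeq2 and limma-voom each called 1 gene of this list.

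Few of the other ligands and receptors had enough counts to test. Of the 4 other ligands and the binding protein IL18BP, 2 were tested and 0 passed: IL18BP, which neutralizes IL-18, at 2.37 ± 0.246 CPM in siETV4 libraries and 2.89 ± 0.172 CPM in siNC libraries (log2 fold change -0.29, edgeR adjusted p 0.506), and IL37, an anti-inflammatory ligand, at 0.363 ± 0.118 CPM in siETV4 libraries and 0.506 ± 0.397 CPM in siNC libraries (SD, n = 4 each). The groups of IL18BP did not overlap, with siETV4 lower. Over the 5 lists, 8 tested genes were higher without overlap and 1, IL18BP, lower. The shares over all genes tested were 2.62% and 3.93%. Of 6 other receptors 3 were tested and 0 passed. In both lists 0 genes had an unadjusted p under 0.05, and DESeq2 and limma-voom also called 0. SIGIRR, an inhibitory receptor of the family, was the most abundant at 30.4 ± 4.89 CPM in siETV4 libraries and 36.9 ± 6.50 CPM in siNC libraries (log2 fold change -0.28, edgeR adjusted p 0.476). IL18R1, the ligand-binding chain for IL-18, averaged 1.22 ± 0.229 CPM in siETV4 and 1.14 ± 0.180 CPM in siNC, and its partner IL18RAP was below the filter. The median log2 fold change of the 3 tested receptors was -0.05.

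Of 14 tested receptor signalling genes 0 passed in edgeR, DESeq2 or limma-voom, and 4 had an unadjusted p under 0.05, beside 12.6% of all genes tested. Of these 4, IRAK1 was below 0, and IRAK4, PELI1 and UBE2N, named after their values were seen, were above 0. Among all 14, 8 were above 0 and 6 below, and the median log2 fold change was 0.07. IRAK1, the kinase recruited through MYD88, averaged 742.3 ± 77.1 CPM in siETV4 libraries and 963.7 ± 139.1 CPM in siNC libraries (SD, n = 4 each; log2 fold change -0.38; edgeR adjusted p 0.276). It passed as lower without siNC replicate 4 (edgeR adjusted p 0.0103), also with the trends removed as well (edgeR adjusted p 0.0122), but not with all 8 libraries and the trends removed (edgeR adjusted p 0.0711). In the fit without siNC replicate 4, 3 genes of this list passed as higher and 1, IRAK1, as lower. That fit called 12% of all genes higher and 4.88% lower. MYD88 itself, the adaptor of these receptors, stood at 79.6 ± 2.54 CPM in siETV4 libraries and 81.2 ± 6.20 CPM in siNC libraries, with a log2 fold change of -0.03.

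The last list held genes that IL-1 or IL-36 induce in keratinocytes. Of 21 listed, 20 were tested and 0 passed in edgeR, 16 were above 0 and 4 below, and the median log2 fold change was 0.34, beside -0.01 over all genes tested. At an unadjusted p under 0.05 stood 11 of the 20, beside 12.6% of all genes tested. Of these 11, TNIP1, an inhibitor of NF-kB signalling, was below 0 (log2 fold change -0.22) and is named after its values were seen. DESeq2 called 4 list members among 164 genes, and limma-voom 1 among 42. In 7 of the 20 the groups did not overlap, all higher in siETV4, beside 2.62% of all genes tested. The list was chosen with earlier results of these data known, so these shares describe it and are no test. LCN2, an iron-binding antimicrobial protein, was the most abundant by FPKM and had 560.8, 582.3, 555.8 and 586.8 CPM in siETV4, against 472.0, 438.8, 472.0 and 388.4 CPM in siNC. Its groups did not overlap, with a log2 fold change of 0.37 (SE 0.09; edgeR adjusted p 0.143). SAA1, an acute-phase protein with a close paralog in SAA2 that may share its reads, averaged 115.8 ± 8.72 CPM in siETV4 libraries and 96.8 ± 13.6 CPM in siNC libraries (log2 fold change 0.26, edgeR adjusted p 0.390). CXCL8, the neutrophil chemokine, was chosen after its values were seen as the member nearest to the threshold. It stood at 38.8, 30.2, 33.5 and 30.8 CPM in siETV4 and 19.9, 16.7, 15.5 and 23.4 CPM in siNC, a log2 fold change of 0.82 (SE 0.15; edgeR adjusted p 0.0623). Without siNC replicate 4, 6 list members passed as higher and 1 as lower, in a fit that called 12% of all genes higher and 4.88% lower. With the trends removed 4 passed as higher and 0 as lower, beside 0.874% of all genes each way. LCN2 and CXCL8 passed in both fits, and SAA1 with the trends removed.

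**Figure D4:**
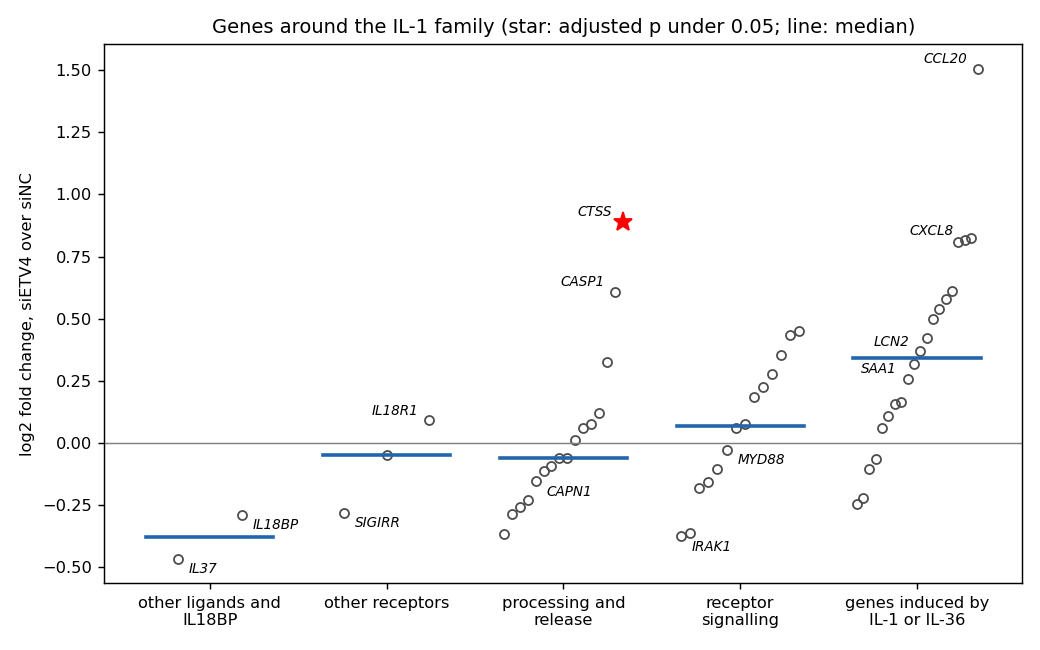
Log2 fold change of siETV4 over siNC for the 55 tested genes of the 5 lists, with 1 point per gene sorted within each list and a line at the list's median. CTSS is the single gene with an adjusted p under 0.05 (star), and the induced genes have a median of 0.34.

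The genes most like IL1R1, the member with the smallest p, were sought by Pearson's correlation of log2 CPM over the 8 libraries among 11766 genes with a mean of at least 1 CPM. They were SCO1, a copper chaperone of cytochrome oxidase (r = 0.98), ARPC2, a subunit of the Arp2/3 complex (0.98), the histone chaperone NAP1L4 (0.97), the spliceosomal isomerase PPIL1 (0.97) and the arginine methyltransferase PRMT6 (0.96). These points share their libraries and GC content trends. The 5 were picked as the highest of 11766 correlations over 8 libraries, so a high r follows from the choice and is no test of a link. The 5 genes had log2 fold changes of 0.12 to 0.29 and none passed (edgeR adjusted p 0.352 to 0.531), against 1.01 for IL1R1.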

How the data were processed

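Total RNA of 8 HaCaT cultures was sequenced, and groups and replicate numbers come from the sample titles. The authors deposited raw read counts per gene symbol and FPKM values for the same 34415 symbols. Each deposited FPKM equals the count over the library total and a gene length that was constant within a relative tolerance of 1e-06 for 20584 of the 20585 genes above 0. The submitters' processing notes name hg38 and R 3.2.0. For the aligner, counting tool, annotation and strand, the sources used here give nothing.

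Tests on these counts ran under edgeR 4.0.16 (R 4.3.3). Its filterByExpr (minimum count 10) kept 13572 genes, libraries were scaled by TMM, the siRNA was the only term, and the quasi-likelihood test was adjusted by Benjamini-Hochberg over all genes tested. CPM uses TMM-scaled library sizes. Standard errors are the log2 fold change over the root of the F statistic, and 95% intervals use the same fit. Alternatives used DESeq2 1.42.0, limma 3.58.1, other scalings, filters and thresholds, the replicate number, left-out libraries, log2 FPKM with a pseudocount of 1 or 0.1, and offsets that remove each library's trend with GC content and length (splines, 5 degrees of freedom). GC content came from GENCODE v29 for 12470 tested genes (91.9%). The correlation with IL1R1 used log2 of CPM plus 0.025. Tests were tested on simulated data. No pair of libraries agreed within sampling noise (chi-square per degree of freedom of at least 10). All 10 members are named, with ETV4. From each list the genes past the threshold are named, with the 2 most abundant by FPKM where fewer than 2 passed. The members and lists were chosen with earlier results of these data known.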

Additional observations from a re-analysis of the deposited data

Results flagged for a closer look

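Of 32 sets of 4 values looked at (9 members and 7 ratios of members, in each group), 1 held a library far from the other 3: IL1B in siNC replicate 2, at 63.1 CPM, with a gap to the next library of 0.838 of the group's range. Chance flags about 5% of such groups. Without siNC replicate 2 the log2 fold change of IL1B was -0.0035. That library also had the fewest counts, 35057643, and the cause was not tested.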

How the results depend on the processing

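Members past the threshold numbered 0 with all 8 libraries and in each alternative run except the omission of siNC replicate 4, so the range when 1 library was left out was 0 to 2. Over all genes, 32 passed, 16 higher and 16 lower in siETV4, against 16 higher and 10 lower with library size alone. The count was 54 without a filter on low counts, 164 by DESeq2, 59 and 59 on log2 FPKM plus 1 or 0.1 with a mean of at least 0.5, 218 with GC content and length offsets, 821 with the offsets and without siNC replicate 4, 60 at an adjusted p under 0.1, 9 at 0.01, and 9 to 2327 when 1 library was left out. Deviations of same-numbered libraries correlated at -0.08, 0.27, -0.12 and -0.17. Only for siETV4 replicate 2 did the best-matching siNC library have the same number. The libraries also differ in GC trend, so these values do not settle whether the replicate numbers pair the samples. With the replicate block 4 genes passed, and 102 with the block and the offsets. CTSS passed in neither (edgeR adjusted p 0.185 and 0.0760). Of the listed pathway genes 1 passed. The count was 0 with library size alone, 2 without a filter, 5 by DESeq2, 2 by limma-voom, 0 with the replicate block, 3 and 3 on filtered log2 FPKM, 0 on unfiltered log2 FPKM, 6 with the offsets, 2 with block and offsets, 12 with the offsets and without siNC replicate 4, 2 at 0.1, 0 at 0.01, and 0 to 15 when 1 library was left out. IL18 reversed to -0.085 with the offsets, -0.085 with block and offsets, and -0.16 with the offsets and without siNC replicate 4. No other tested member reversed. The causes of these changes were not tested. IL36RN and IL1R1 were not tested at a mean FPKM of at least 0.5, nor IL36RN at 1 CPM in 4 libraries. Depth limits IL36G, IL36RN, IL1R1 and IL1R2, with at most 67 counts in any library.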
